A study of Mus musculus with 17 samples.

Results

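The later change in gene expression with bFGF (basic fibroblast growth factor) was analysed in mouse neural retinal progenitor cells (mNRPCs). The members are the 6 libraries that hold bFGF and were harvested from day 3 on, of 17 libraries in all, and days 5 and 7 (4 libraries) were set against day 3 (2 libraries). The mNRPCs are cultured cells of the C57BL/6 strain grown out of adult neural retina, kept on Matrigel in the basic medium BM, which holds the supplements N2 and B27. B is BM with bFGF, and BC is BM with bFGF and CHIR99021, an inhibitor of the kinase GSK3. BM alone and C, which is BM with CHIR99021, are the cultures without bFGF. There is 1 library for each treatment and day, so no value has a replicate of its own, and the p-values measure how far the day effect stands above what is left after day group and CHIR99021 are fitted, not the spread between cultures. The culture started from dissociated neural retina, and how many animals or passages stand behind each library is not given in the sources used here.

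bFGF binds FGF receptor tyrosine kinases and switches on the RAS, RAF, MEK and ERK cascade, which drives cells through G1 and induces its own inhibitors, the Sprouty and Spred proteins and the dual-specificity phosphatases. Growing cells also need ribosomes, mitochondrial respiration and folding capacity in the endoplasmic reticulum (ER), where unfolded proteins induce chaperones such as HSPA5. In retina, FGF signalling is known as a mitogen and survival signal for progenitors and for Müller glia.

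The total expected count, an estimated number of reads, ran from 17571973 to 18216696 over the 6 libraries, and 14820 to 15749 genes were listed in each. The 10 most abundant genes took 5.49% to 5.63% of the counts on day 3 and 7.45% to 7.68% on days 5 and 7. The trimmed-mean (TMM) factors that correct for such a shift in composition were 1.16 for both day 3 libraries and between 0.898 and 0.948 for the later ones. With these factors the median log2 fold change over all 10853 genes tested was -0.03, and without them it was -0.35, so every direction given here is relative to the bulk of genes.

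The labelled cell type was checked against marker genes. Of 15 retinal progenitor markers, 8 passed the filter (a mean FPKM of at least 1 over the 6 libraries). FPKM is the count scaled to transcript length and library total. Sox2 was listed at 40.4 (B) and 59.5 FPKM (BC) on day 3 and at 29.1 to 48.1 FPKM on days 5 and 7, and Six3 at 44.9 and 53.4 FPKM and then at 20.4 to 33.4 FPKM. Of the 8, Hes1 was called higher (log2 2.09), Nr2f1 and Six3 were called lower (log2 -1.34 and -0.56), and Sox2, Pax6, Sox9, Nes and Ccnd1 were not called, Pax6 being at 33.8 and 82.4 FPKM on day 3 and at 10.7 to 33.4 FPKM later. The other 7, among them Fabp7, Lhx2, Otx2, Rax and Six6, were below 1 FPKM in all 6 libraries. All 14 photoreceptor markers stayed below 1 FPKM in all 6, the highest value of any of them being 0.44 FPKM. For other cells, the glial markers summed to 3544 and 3813 FPKM on day 3 and to 3734 to 4573 FPKM later, the neuronal markers to 37.6 and 45.9 FPKM and then 36.3 to 44.6 FPKM, and the fibroblast and mural cell markers to 105 and 175 FPKM and then 70.5 to 157 FPKM, so these ranges overlapped. Of the 15 glial markers analysed, 8 were below 1 FPKM in all 6 libraries, among them Gfap, Rlbp1, Slc1a3 and Aqp4. Sums can hide single genes: nearly all of the glial sum was Vim, and of the 4 fibroblast and mural genes tested, Pdgfrb (18.5 and 31.9 FPKM, then 5.25 to 13.2 FPKM) and Acta2 (9.12 and 8.83 FPKM, then 1.14 to 4.49 FPKM) were called lower and Dcn higher. The summed levels also overlapped for the endothelial markers (3.01 and 3.76 FPKM, then 2.38 to 3.54 FPKM) and for the microglia and macrophage markers (12.4 and 37.2 FPKM, then 23.2 to 82.1 FPKM). Of those 12 microglial genes, 10 were below 1 FPKM in all 6 libraries, Cd68 made up most of the sum, and Cx3cr1 was at 0.33 to 2.25 FPKM on days 5 and 7 against 0.10 and 0.03 FPKM on day 3. The ranges did not overlap for the 11 retinal pigment epithelium markers (1.20 and 1.26 FPKM, then 1.30 to 2.07 FPKM, with 10 of them below 1 FPKM in all 6), nor for the lens crystallins, where Cryab was the 1 gene tested. Their part in the results was not tested. In such bulk samples, fewer cells of a type and less RNA per cell cannot be told apart.

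Promoters of 5 genes from the leading groups are shown first, from 250 bases before to 50 bases after the start site (RefSeq, GRCm38.p6). The elements were searched on both strands and none of their letter patterns contains another. A match describes the letters in the window and is not evidence of binding. Of the 10853 tested genes, 8752 had a promoter in the table. Capitals in the sequences mark the match.

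The promoter of Hspa5, which encodes the main ER chaperone BiP (chr2:34771840-34772139, plus strand), is shown because Hspa5 led the ER genes that rose. It holds 1 copy of the ER stress response element, CCAAT and CCACG with 9 free bases between them, which starts 65 bases before the start site.
Hspa5: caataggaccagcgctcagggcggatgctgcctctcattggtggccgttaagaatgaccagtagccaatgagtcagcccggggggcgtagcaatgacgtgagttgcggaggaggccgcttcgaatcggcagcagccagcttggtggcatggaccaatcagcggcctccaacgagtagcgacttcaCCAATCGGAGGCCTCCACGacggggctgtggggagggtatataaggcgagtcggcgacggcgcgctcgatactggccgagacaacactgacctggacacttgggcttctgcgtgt
This element was in 0.137% of all 27025 genes with a promoter and in 8 of 17 genes of the ER list (Dnajc3, Calr, Canx, Hspa5, Hsp90b1, Pdia6, Syvn1 and Creld2), of which Dnajc3 and Syvn1 were not called after day 3. It was in 0.160% of the 8752 tested genes, in 0.485% of the genes called higher and in 0.059% of those called lower. Manf is named only.

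The promoters of Irgm2 (chr11:58214727-58215026, plus strand) and Tgtp2 (chr11:49064163-49064462, minus strand), both interferon-induced GTPases, are shown because they were among the 12 leading falls. Each holds 1 copy of the interferon-stimulated response element core, GAAA repeated after 2 free bases, starting 64 and 70 bases before the start site.
Irgm2: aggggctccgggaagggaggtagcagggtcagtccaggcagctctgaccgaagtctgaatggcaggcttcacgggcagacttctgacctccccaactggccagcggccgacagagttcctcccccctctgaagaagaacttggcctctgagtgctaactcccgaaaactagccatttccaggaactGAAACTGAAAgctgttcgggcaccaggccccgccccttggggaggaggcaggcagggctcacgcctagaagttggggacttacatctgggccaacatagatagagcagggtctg
Tgtp2: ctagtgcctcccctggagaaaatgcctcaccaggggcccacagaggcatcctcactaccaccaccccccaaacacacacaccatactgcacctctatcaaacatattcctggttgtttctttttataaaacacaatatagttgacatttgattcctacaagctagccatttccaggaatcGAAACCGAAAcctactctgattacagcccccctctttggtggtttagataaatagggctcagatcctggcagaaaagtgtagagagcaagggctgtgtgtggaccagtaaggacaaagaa
The core was in 3.99% of all genes with a promoter and in 12 of 24 members of the interferon list. It was in 3.77% of the 8752 tested genes, in 3.61% of the genes called higher and in 4.36% of those called lower.

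The promoter of Ube2c (chr2:164769679-164769978, plus strand), a ubiquitin-conjugating enzyme of the anaphase-promoting complex, stands for the G2/M genes. It holds 1 copy of TTTGAA, the cell cycle genes homology region, 29 bases before the start site.
Ube2c: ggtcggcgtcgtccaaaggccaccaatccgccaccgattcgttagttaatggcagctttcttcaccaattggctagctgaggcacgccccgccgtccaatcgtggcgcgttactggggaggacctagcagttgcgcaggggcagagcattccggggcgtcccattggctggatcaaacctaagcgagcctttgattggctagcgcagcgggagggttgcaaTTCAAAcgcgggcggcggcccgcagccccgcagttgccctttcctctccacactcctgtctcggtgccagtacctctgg
TTTGAA was in 20.2% of all genes with a promoter and in 33 of 47 members of the G2/M list. It was in 14.3% of the 8752 tested genes, in 16.7% of the genes called higher and in 15.2% of those called lower.

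The promoter of Ciart, a repressor in the circadian clock and 1 of the 12 leading rises (chr3:95882179-95882478, minus strand), holds 3 copies of the E-box CACGTG, which start 116, 58 and 44 bases before the start site.
Ciart: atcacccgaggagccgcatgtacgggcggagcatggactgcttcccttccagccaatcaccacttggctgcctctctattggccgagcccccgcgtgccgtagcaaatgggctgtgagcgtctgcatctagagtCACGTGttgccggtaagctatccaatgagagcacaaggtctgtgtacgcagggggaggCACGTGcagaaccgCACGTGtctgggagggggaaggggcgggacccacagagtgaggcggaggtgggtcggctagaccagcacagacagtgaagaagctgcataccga
The E-box was in 8.09% of all genes with a promoter and in 12.1% of the 8752 tested genes.

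After day 3, 1805 genes were called higher and 2131 lower of 10853 tested with edgeR's quasi-likelihood test (Benjamini-Hochberg adjusted p under 0.05, CHIR99021 as covariate, and the same sign in the 4 pairs of a later day with day 3 in B and in BC). The background is 36.3% called, 16.6% higher and 19.6% lower. A fold of at least 2 was reached by 428 of the genes called higher and by 1102 of those called lower. Without TMM scaling, 665 genes were called higher and 3900 lower (6.13% and 35.9%). These counts rest on both day 3 libraries: without BC day 3 no gene was called by edgeR (2238 genes at an unadjusted p under 0.05), and without B day 3 the call was made for 85 genes, whereas 3103 to 4219 genes were called without any 1 of the later libraries.

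Among the 12 genes with the largest rise in their smallest pair difference were stress and chaperone genes. Gadd45g and Gadd45b encode stress sensors that bind PCNA. Gadd45g (Entrez gene 23882) was listed at 38.9 FPKM in B and 36.0 FPKM in BC on day 3, at 161 and 148 FPKM on day 5 and at 331 and 363 FPKM on day 7. It rose by 3.07 ± 0.47 on the log2 scale (SE; edgeR adjusted p = 0.00437), and the day 7 libraries lay above the day 5 libraries. Gadd45b was at 118 and 58.3 FPKM on day 3, at 422 and 332 FPKM on day 5 and at 452 and 426 FPKM on day 7, a rise of 2.60 ± 0.26 (adjusted p = 0.00225). Hspa1a and Hspa1b encode the inducible cytosolic chaperone HSP70 and are near-identical copies, so the split of reads between them is uncertain. Hspa1b went from 20.7 and 18.6 FPKM to 71.4 and 65.4 FPKM on day 5 and 320 and 425 FPKM on day 7, and Hspa1a from 5.88 and 4.04 FPKM to 26.1 and 20.6 and then 142 and 237 FPKM. The rises were 3.81 ± 0.93 (Hspa1b) and 4.71 ± 1.20 (Hspa1a), with adjusted p = 0.018 and 0.021. Both HSP70 genes rose again between day 5 and day 7, by 2.48 (Hspa1b) and 3.07 (Hspa1a), whereas Gadd45b was not called there (log2 0.28, adjusted p = 0.299).

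Hspa5 (Entrez gene 14828) was at 552 FPKM in B and 428 FPKM in BC on day 3, at 2064 and 1592 FPKM on day 5 and at 1776 and 1606 FPKM on day 7. The rise was 4.52-fold (log2 2.18 ± 0.17, adjusted p = 0.00203), and the later libraries all lay above those of day 3. Manf, a secreted ER stress-induced neurotrophic factor, went from 47.4 and 40.1 FPKM to between 106 and 138 FPKM (log2 1.79 ± 0.16, adjusted p = 0.00225). Cryab, a small heat shock protein of lens and glia, was at 773 and 322 FPKM on day 3, at 1856 and 794 FPKM on day 5 and at 2374 and 1625 FPKM on day 7. B stood above BC on each day, BC on day 5 lay just above B on day 3, and the rise was 1.99 ± 0.33 (adjusted p = 0.00561).

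The other 5 leading rises were of mixed function. Ciart went from 22.2 and 13.4 FPKM on day 3 to 100.9 and 82.9 FPKM on day 5 and to 60.4 and 58.6 FPKM on day 7, a rise of 2.75 ± 0.29 (adjusted p = 0.00225). Gcg, the glucagon precursor, was low, at 1.10 and 1.51 FPKM on day 3 and between 7.27 and 8.48 FPKM later. Apod, a lipocalin that binds lipids, was at 2.85 FPKM in B and 6.91 FPKM in BC on day 3, and at 8.46 to 10.2 FPKM in B and 23.9 to 25.9 FPKM in BC later. The proliferin genes Prl2c2 and Prl2c3, prolactin-family hormones, share reads as near-identical copies and their separate values are uncertain. Prl2c3 went from 15.4 and 8.35 FPKM to 43.6 and 26.4 and then to 131 and 93.2 FPKM.

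The 12 leading falls held genes of membranes, innate immunity and Wnt signalling. Ehd2, an ATPase at the necks of caveolae, fell from 88.1 FPKM in B and 120 FPKM in BC to 17.3 and 20.5 FPKM on day 5 and to 11.4 and 10.2 FPKM on day 7 (log2 -2.56 ± 0.29, adjusted p = 0.00232). Dkk2, a secreted Wnt modulator, fell from 129 and 108 FPKM to between 14.5 and 23.5 FPKM (log2 -2.39 ± 0.19, adjusted p = 0.00203). Tlr4, the receptor for lipopolysaccharide, fell from 7.83 and 8.94 FPKM to between 0.53 and 1.05 FPKM, 8.68-fold lower. For these 3 genes the day 3 libraries lay above each later library.

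Irgm2 was at 22.7 and 42.7 FPKM on day 3, at 2.38 and 3.65 FPKM on day 5 and at 4.54 and 3.82 FPKM on day 7 (log2 -2.81 ± 0.27, adjusted p = 0.00225). Tgtp2 was at 40.6 and 69.9 FPKM and then at 5.16 and 9.11 FPKM on day 5 and 8.01 and 11.6 FPKM on day 7, and it has a near-identical copy, so its level is uncertain. Fam43a fell from 11.1 and 14.2 FPKM to between 0.54 and 0.95 FPKM, the largest fall by the smallest pair difference. Klhdc8a fell from 55.0 and 34.95 FPKM to 6.02 and 5.54 FPKM on day 5 and 3.49 and 1.91 FPKM on day 7. Lipt2, which attaches lipoic acid to mitochondrial enzymes, was at 4.91 and 6.91 FPKM and then at 0.14 to 0.28 FPKM, with as few as 3 reads in a library. Tmem140, a membrane protein, fell from 21.2 and 23.2 FPKM to between 1.52 and 3.55 FPKM, and Zadh2, Fiz1 and Zfp46 made up the rest, with log2 changes of -2.90, -2.43 and -3.08. Each of these 9 genes was lower in every later library than in both day 3 libraries.

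**Figure D1:**
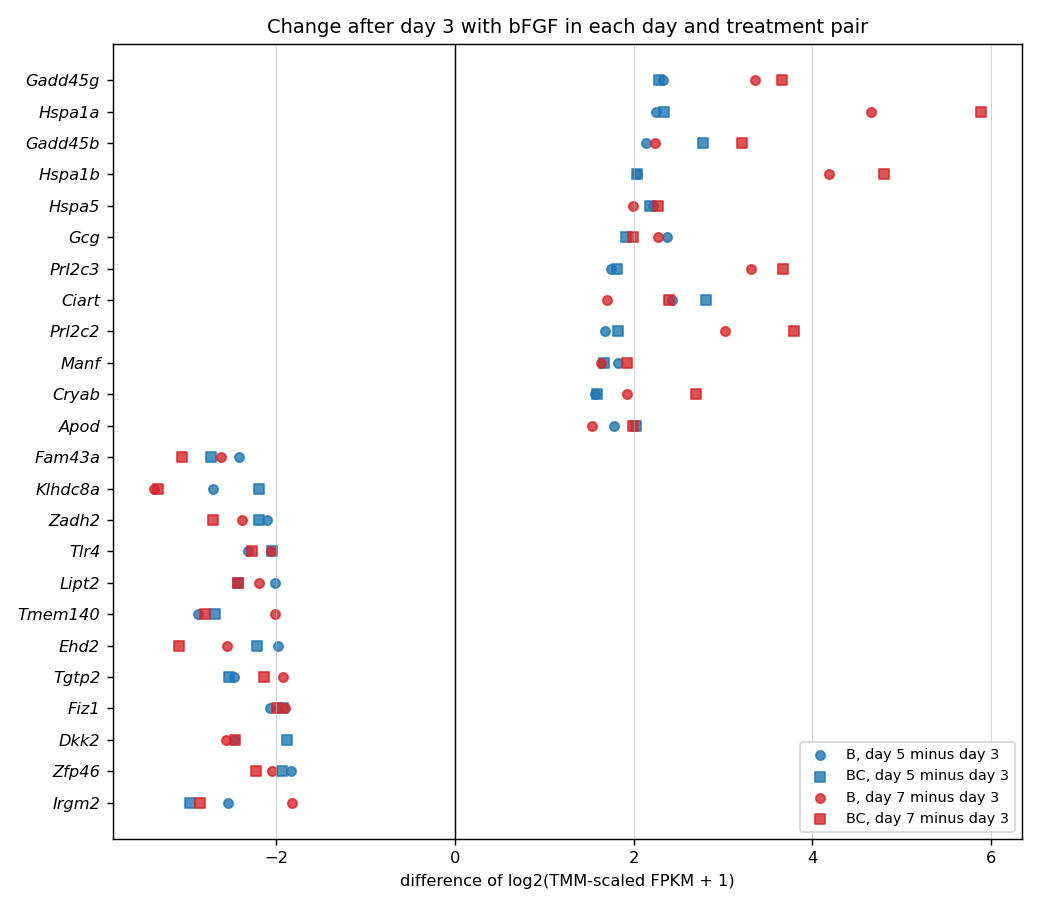
Difference from day 3 of log2(TMM-scaled FPKM + 1) for the 12 leading rises and 12 leading falls, with B as circles, BC as squares, day 5 in blue and day 7 in red. The 4 points of each gene lie on one side of 0 by the rule that chose the genes, and for Gadd45g, Hspa1a, Hspa1b, Prl2c2 and Prl2c3 the day 7 points lie to the right of the day 5 points.

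The cell cycle lists were led by G2/M genes. Of 54 G2/M genes tested, 38 were called higher and 0 lower, with a median log2 fold change of 0.79 (all genes, -0.03), and without TMM scaling 27 were higher, 1 was lower and the median was 0.47. Ube2c was at 161 and 109 FPKM on day 3, at 335 and 202 FPKM on day 5 and at 344 and 298 FPKM on day 7 (log2 1.46 ± 0.21, adjusted p = 0.00364). Cks2, a docking subunit of cyclin-dependent kinases (CDKs), went from 76.6 and 59.1 FPKM to 142 and 105 and then to 213 and 206 FPKM. Aurka, a spindle pole kinase, went from 40.1 and 26.6 FPKM to between 49.6 and 71.4 FPKM. In these 3 genes each later library lay above both day 3 libraries.

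Of 42 S-phase genes tested, 11 were called higher and 0 lower, the median being 0.47, and without TMM scaling it was 0.14 with 6 higher and 3 lower. Rad51ap1, a DNA repair protein, went from 6.38 and 4.72 FPKM to 13.8 and 10.7 FPKM and then to 21.5 and 23.8 FPKM (log2 1.98 ± 0.38, adjusted p = 0.00865). Mcm2 and Mcm4, subunits of the replicative helicase, rose by 1.06 and 0.99. Among 9 G1 cyclins and kinases, Ccne1 was called higher (log2 0.76) and the other 8 were not called, and Ccne1 lost its call without TMM scaling. Ccnd1, cyclin D1, was at 420 and 252 FPKM on day 3 and between 254 and 411 FPKM later. Of 7 CDK inhibitor genes, whose median of 0.19 turned to -0.13 without TMM scaling, Cdkn1a (p21, log2 0.93) and Cdkn2d (p19, log2 0.88) rose and Cdkn2b (p15) fell from 158 and 74.9 FPKM to between 40.4 and 63.4 FPKM (log2 -0.85 ± 0.24, adjusted p = 0.0281). The replication-dependent histone genes lack poly-A tails and share sequence, so their 18 tested members are uncertain.

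The genes of protein synthesis were led by the ribosome. Of 77 cytosolic ribosomal protein genes tested, 65 were called higher and 0 lower, with a median of 0.73 and a range of 0.27 to 1.16. Without TMM scaling the median stayed above 0, at 0.41, but the calls dropped to 7. Rpl38 was at 577 and 637 FPKM on day 3, at 726 and 911 FPKM on day 5 and at 992 and 1716 FPKM on day 7 (log2 1.16 ± 0.30, adjusted p = 0.023). Rps15 went from 1135 and 1346 FPKM to 1479 and 1698 and then to 1682 and 2440 FPKM. In both genes the BC library of day 7 was the highest of the 6.

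Of 77 oxidative phosphorylation genes, 28 were called higher and 0 lower (median 0.51), and 2 and 2 without TMM scaling (median 0.19). Atp5l, a subunit of ATP synthase, rose from 189 and 193 FPKM to between 243 and 395 FPKM. Of 77 mitochondrial ribosomal protein genes, 6 were higher and 3 lower, shares below the background in both directions, and without TMM scaling 0 were higher and 12 lower, the median of 0.25 turning to -0.07. Mrps2 fell from 7.61 and 8.02 FPKM to between 1.88 and 2.28 FPKM. Of 37 proteasome genes, 14 were higher and 0 lower (median 0.35), but without TMM scaling 2 were higher and 3 lower (median 0.04). The list was led by Psmd8 (log2 1.09).

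The ER chaperone and unfolded protein response list had 14 of 19 genes called higher and 0 lower, with a median of 0.80 (0.48 without TMM scaling, 10 higher and 1 lower). Calr, a calcium-binding lectin chaperone, went from 359 and 367 FPKM to 790 and 745 FPKM on day 5 and to 619 and 607 FPKM on day 7. Hsp90b1, the ER form of HSP90, went from 453 and 422 FPKM to 915 and 835 and then to 684 and 646 FPKM. In both, day 5 stood highest and day 7 still stood above day 3. Xbp1, the transcription factor of this response, was not called (log2 -0.86), and its protein is controlled by splicing that these counts do not show. Of 22 ATF4 targets, 7 were higher and 2 lower (median 0.21), and without TMM scaling 3 were higher and 4 lower (median -0.11). Ddit3 (CHOP), a stress transcription factor, rose from 395 and 253 FPKM to between 525 and 713 FPKM, Atf4 rose by 1.13, and the cystine transporter Slc7a11 fell by 1.77 on the log2 scale.

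Further lists of rising genes were those of lysosomes and of immediate early genes. Of 28 lysosomal genes, 17 were higher and 0 lower (median 0.54, and 0.22 with 11 higher and 0 lower without TMM scaling). Ctsd, the protease cathepsin D, rose from 676 and 663 FPKM to 1390 and 1241 FPKM on day 5 and 1719 and 1620 FPKM on day 7 (log2 1.48 ± 0.20, adjusted p = 0.00311). Of 15 AP-1 and EGR genes, 8 were higher and 0 lower (median 0.89, and 0.57 with 6 higher and 2 lower without TMM scaling). Fos was at 1.82 and 2.09 FPKM, at 2.87 and 3.10 FPKM on day 5 and at 11.3 and 14.3 FPKM on day 7, so most of its rise of 2.34 ± 0.76 (adjusted p = 0.045) lay after day 5.

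Of 24 cholesterol synthesis genes, 9 were higher and 2 lower (median 0.43, and 0.11 with 3 higher and 3 lower without TMM scaling). Hmgcs1, which makes HMG-CoA, went from 92.3 and 82.9 FPKM to 313 and 174 FPKM on day 5 and back to 178 and 114 FPKM on day 7. Of 14 MHC class I genes, 5 were higher and 0 lower, and without TMM scaling 3 were higher and 4 lower, the median of 0.19 turning to -0.14. B2m, the light chain of MHC class I, went from 3093 and 3850 FPKM to between 4285 and 6817 FPKM.

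Interferon-stimulated genes are switched on by type I and type II interferons through STAT factors. Of 31 tested, 18 were called lower and 2 higher, with a median of -0.75 (-1.07 with 24 lower and 1 higher without TMM scaling). Parp14, an ADP-ribosyltransferase, was at 18.7 and 25.1 FPKM on day 3, at 3.07 and 3.65 FPKM on day 5 and at 4.57 and 3.80 FPKM on day 7 (log2 -2.21 ± 0.19, adjusted p = 0.00209). Ifit1, which binds foreign RNA, was at 42.1 and 79.5 FPKM, then at 6.65 and 12.6 FPKM and then at 14.5 and 17.4 FPKM. Ifih1, the RNA sensor MDA5, fell from 19.9 and 28.6 FPKM to between 3.71 and 5.90 FPKM. The 2 members that rose were Ifi27 and Irf1 (log2 1.47 and 1.02).

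**Figure D2:**
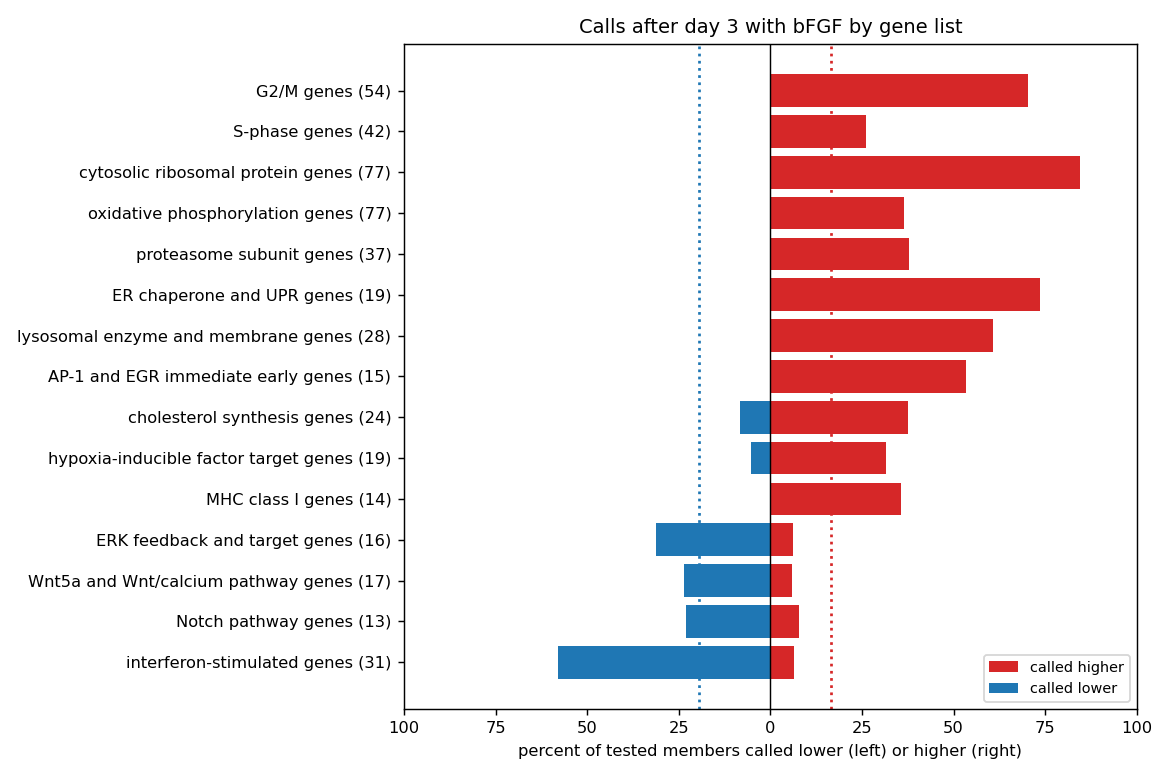
Percent of the tested members of 15 gene lists called higher (red, right) or lower (blue, left) after day 3 with bFGF, with the number tested in brackets and dotted lines at the background of 16.6% and 19.6%. The bars of the ribosomal, ER chaperone and G2/M lists reach far beyond the dotted line on the right, and the interferon bar is the longest on the left.

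The pathway that bFGF itself engages came next. Of 16 ERK feedback and target genes, 1 was higher (Dusp7) and 5 were lower (Dusp6, Spred1, Spred3, Spry2 and Etv1), and the median of 0.05 turned to -0.26 without TMM scaling. The other 10 were not called, so the called share was close to the background of 36.3%. In the cultures without bFGF, 8 of 16 were lower and 0 higher (median -0.38). Over all genes tested there, 18.2% were lower and 17.6% higher. The edgeR test of the difference placed 4 of 16 on the lower side with bFGF and 3 on the higher side. These counts were close to the shares over all genes, 21.5% and 17.5%. Dusp6, an ERK phosphatase, fell from 63.0 and 58.6 FPKM to between 18.03 and 23.5 FPKM (log2 -1.23 ± 0.15, adjusted p = 0.00244). Dusp6 fell without bFGF as well (log2 -1.31), and the difference between both changes did not pass the threshold (edgeR adjusted p = 0.722). Spred3 fell from 32.0 and 40.1 FPKM to between 9.74 and 12.6 FPKM, and Spry2 from 27.3 and 22.0 FPKM to between 7.69 and 9.05 FPKM, both inhibitors of the cascade. The transcription factors Etv4 and Etv5 were not called, Etv4 being at 54.7 and 35.2 FPKM on day 3 and at 37.1 to 49.98 FPKM later. Etv1 of the same family fell by 1.51 on the log2 scale. Of 7 FGF receptors and ligands, Fgf7 fell (log2 -1.15) and 0 rose, and the list median of 0.16 turned to -0.17 without TMM scaling. Fgf7 fell without bFGF as well (log2 -0.69), and the difference between both changes did not pass the threshold (edgeR adjusted p = 0.213). Fgfr1, the main receptor measured, was at 87.5 and 67.8 FPKM on day 3 and at 70.6 to 80.6 FPKM later and was not called.

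Of 8 EGF family genes, Hbegf rose and Erbb2 and Erbb3 fell. The other 5 were not called, so the called share was close to the background of 36.3%. Hbegf, a ligand of the EGF receptor, went from 31.4 and 14.0 FPKM to 36.4 and 31.4 FPKM on day 5 and 91.7 and 64.5 FPKM on day 7 (log2 1.71 ± 0.46, adjusted p = 0.0253). Erbb2, a co-receptor without a ligand of its own, fell from 7.46 and 8.40 FPKM to 1.24 and 1.28 FPKM on day 5 and to 0.88 and 0.55 FPKM on day 7 (log2 -2.69 ± 0.30, adjusted p = 0.00229). Egfr was not called, at 30.5 and 26.2 FPKM on day 3 and 34.9 to 45.1 FPKM later.

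Wnt and Notch signalling set cell fate in the developing retina. Of 17 Wnt5a and Wnt/calcium genes, 1 was higher (Fzd5) and 4 were lower (Wnt5a and the receptors Fzd2, Fzd6 and Fzd8), so that 5 of 17 called is no more than the background share of 36.3%. Without TMM scaling 1 was higher and 7 were lower, and the median of -0.17 became -0.49. Wnt5a went from 11.2 and 21.4 FPKM to 4.02 and 7.59 and then to 1.93 and 2.60 FPKM (log2 -1.79 ± 0.42, adjusted p = 0.0158). Of 7 canonical Wnt feedback genes, 1 was higher and 1 lower, again no more than the background share. Axin2, a negative regulator of the pathway, fell from 4.47 and 9.51 FPKM to between 1.31 and 3.40 FPKM, and Bambi, a decoy receptor for TGF-beta family ligands, rose from 1.11 and 0.96 FPKM to between 1.21 and 2.36 FPKM (log2 1.24). Of 13 Notch genes, 3 were lower (Notch2, Notch3 and Maml1) and 1 was higher (the target Hes1), also no more than that share. Hes1 was at 6.66 and 4.63 FPKM, then at 12.4 and 29.9 FPKM and then at 16.1 and 26.3 FPKM (log2 2.09 ± 0.36, adjusted p = 0.00619). It rose without bFGF as well (log2 1.22), and the difference between both changes did not pass the threshold (edgeR adjusted p = 0.0836).

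Between day 5 and day 7 with bFGF, 1275 genes were called higher and 1352 lower (11.7% and 12.5%), and the count fell to 6 without BC day 5, to 769 without B day 5 and to 924 without BC day 7. These calls share libraries with those after day 3 and are given side by side. The ribosomal list had 51 of 77 genes higher and 0 lower on day 7 (median 0.44), and oxidative phosphorylation 39 and 0 (median 0.42). The interferon list had 14 of 31 higher and 0 lower (median 0.42), after its lower level on day 5. The cholesterol list had 0 of 24 higher and 14 lower (median -0.44), and the 15 collagen genes 0 higher and 12 lower (median -0.72). The G2/M list had 8 of 54 higher and 1 lower and the ER list 0 of 19 higher and 4 lower. Transcript length moved with this comparison: the median was 1869 bases for genes called higher and 4851.5 bases for those called lower, with a Spearman rho of -0.43 across 10730 genes, which are not independent. Its part in the ribosomal and collagen values was not tested.

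With and without CHIR99021 the changes were compared directly. No gene passed the threshold for a difference of the change after day 3 between BC and B in edgeR, 71 genes had an unadjusted p under 0.05 and DESeq2 called 1. A missing call does not show that the treatments act alike. The medians of the lists in B and in BC can be read in the plot of list medians.

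**Figure D3:**
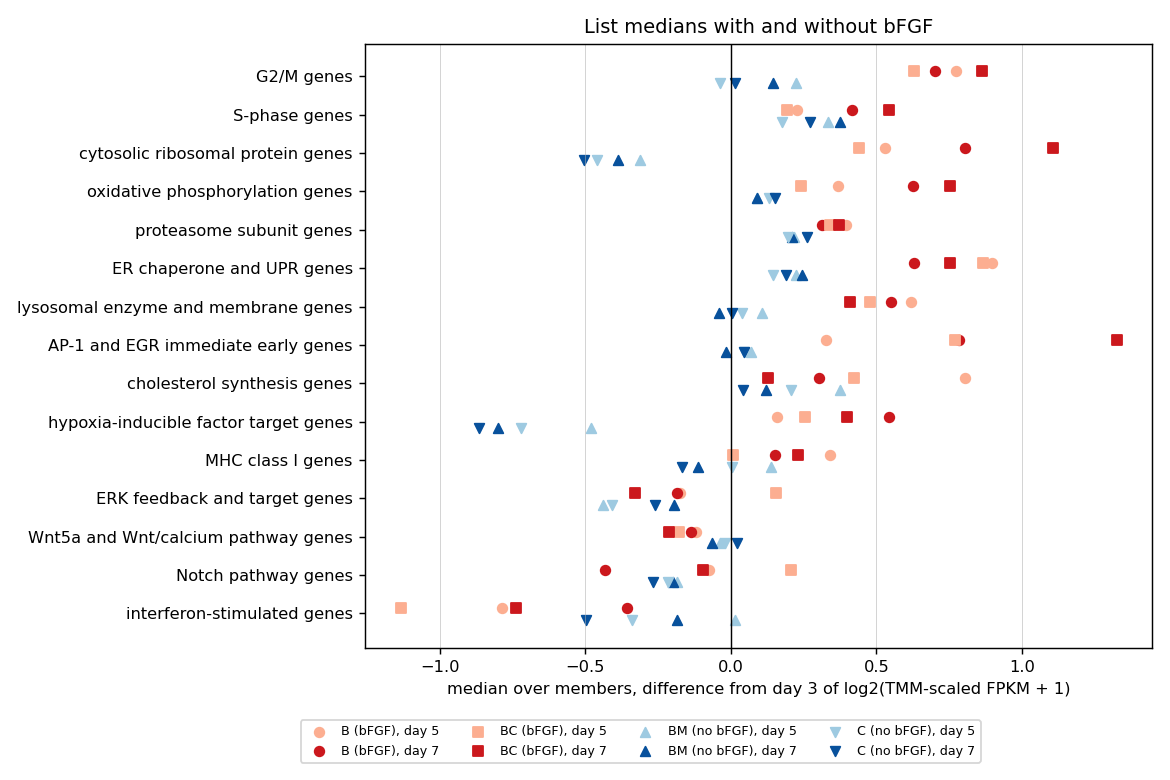
Median over the members of each of 15 lists of the difference from day 3 in log2(TMM-scaled FPKM + 1), for B (circles) and BC (squares) in red tones and for BM and C (triangles) in blue tones, with pale tones for day 5 and dark tones for day 7. The red points of the G2/M, ribosomal and ER lists lie between 0.44 and 1.11, to the right of their blue points, and for the hypoxia list the red points lie right of 0 and the blue points left of it.

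The change after day 3 was compared with that in the 6 libraries without bFGF, which are other cultures. There 1993 genes were called higher and 2064 lower of 11356 tested (17.6% and 18.2%, or 35.7% in all), and 1254 or 1148 genes in all without BM day 3 or C day 3. In the 10607 genes that passed the filter with bFGF, without it and in the fit of both together, 424 were higher in both. That is 24.1% of those higher with bFGF and 23.9% of those higher without. The count lower in both was 486, or 23.1% of those with bFGF and 24.0% of those without. A further 314 genes were higher with bFGF and lower without (17.8% and 15.5%), and 250 were lower with and higher without (11.9% and 14.1%). Of all genes tested without bFGF, 18.2% were lower and 17.6% higher. The shares of opposite calls among the genes called with bFGF were thus not above the background.

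The change itself differed with and without bFGF in 4405 of 11298 genes (39.0%), by the edgeR test of the interaction, with 1978 on the side of a higher change with bFGF (17.5%) and 2427 on the lower side (21.5%). Without TMM scaling the split was 721 and 4409, and without BM day 3, C day 3 or BC day 3 the count was 2233, 2246 or 2257. The ribosomal list had 75 of 77 genes on the higher side and 0 on the lower: without bFGF 69 of 77 fell and 0 rose (median -0.41). The G2/M list had 35 of 54 on the higher side and 0 on the lower (median without bFGF 0.11), and S phase 5 and 4 of 42. Without bFGF, 22 of 42 S-phase genes were called higher and 1 lower (median 0.36). The proteasome list had 8 of 37 on the higher side and 1 on the lower, and without bFGF 20 were called higher and 2 lower. The ER list had 11 of 19 on the higher side and 0 on the lower, and without bFGF 10 were called higher and 0 lower. The interferon list had 11 of 31 on the lower side and 2 on the higher, and without bFGF 15 of 31 were called lower and 1 higher (median -0.27). The hypoxia-inducible factor list had 12 of 19 on the higher side and 0 on the lower. After day 3 with bFGF, 6 of its 19 genes were higher and 1 lower, and the median of 0.28 turned to -0.04 without TMM scaling. Without bFGF 14 of 18 were lower and 0 higher (median -0.78). Its Car9, carbonic anhydrase IX, went up with bFGF from 171 and 213 FPKM to 433 and 542 FPKM on day 7 and down without it from 28.7 (BM) and 32.0 FPKM (C) to 2.76 and 3.29 FPKM, a difference in change of 4.11 (adjusted p = 0.000507). Ndufa4l2, a hypoxia-induced subunit homologue, went from 4.32 and 7.89 to 10.5 and 17.8 FPKM with bFGF, and without it was listed at 0.42 and 0.89 FPKM on day 3 and not listed in either library on day 7, so it passed the filter through the libraries with bFGF and its fold without bFGF has no value.

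**Figure D4:**
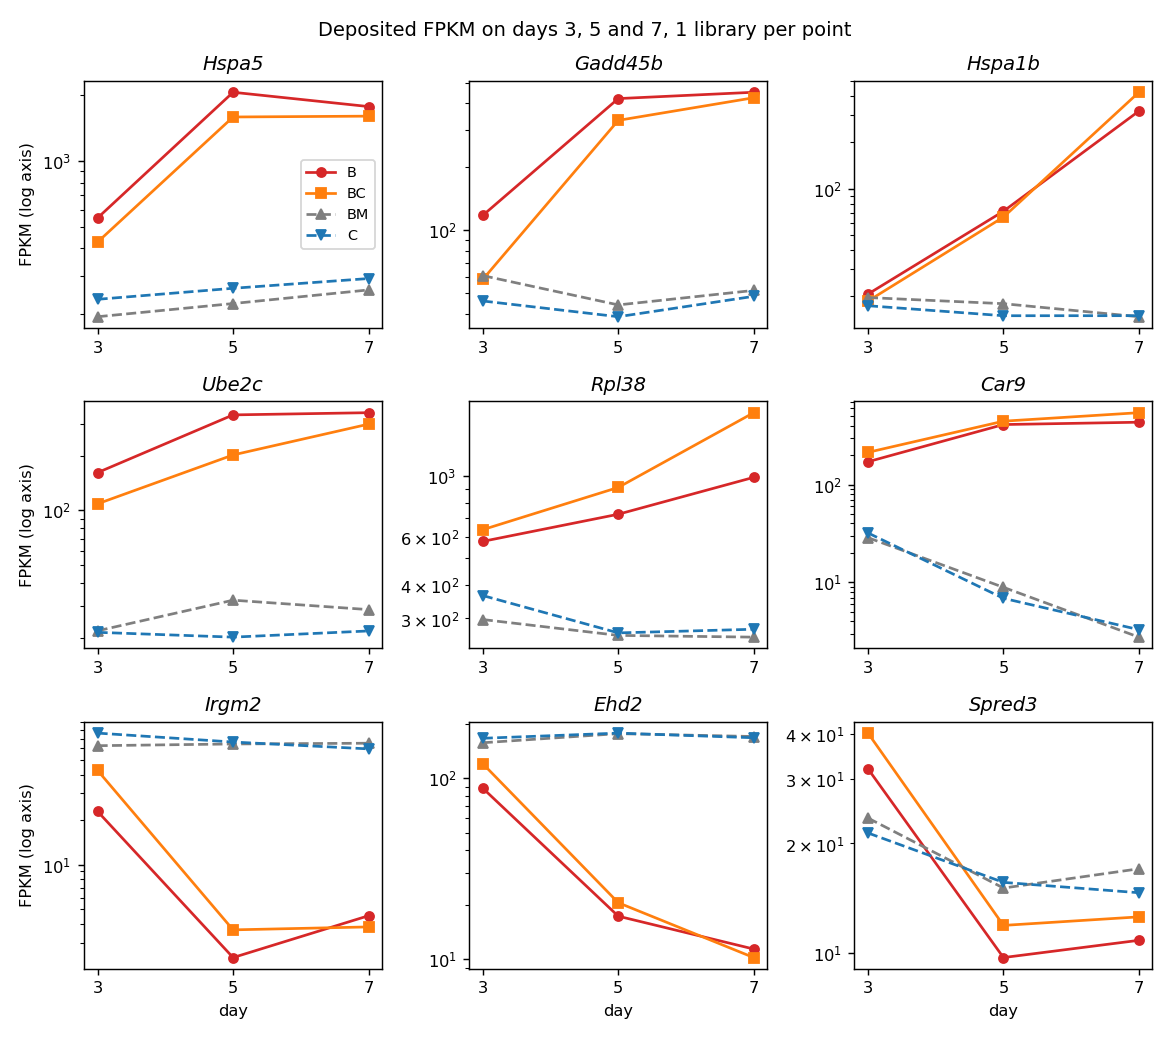
Deposited FPKM (log axis) of 9 genes on days 3, 5 and 7 in B, BC, BM and C, 1 library per point. Hspa5, Gadd45b, Hspa1b, Ube2c, Rpl38 and Car9 are above their day 3 level on days 5 and 7 with bFGF, Irgm2 and Ehd2 go down with bFGF and stay between 59.6 and 178 FPKM without it, and Spred3 is below its day 3 level on days 5 and 7 in all 4 treatments.

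Collagens form the fibrils and sheets of the matrix. Of 44 in the list, 26 were below 1 FPKM in all 6 libraries with bFGF. Over the 15 that passed the filter with and without bFGF, 3 were higher and 0 lower with bFGF (median -0.09, and 1 higher and 2 lower with a median of -0.40 without TMM scaling), and 8 were higher and 2 lower without bFGF (median 0.31). The test of the difference placed 3 of these 15 on the lower side with bFGF and 1 on the higher side. Neither count was above the share over all genes, 21.5% and 17.5%. A further 9 collagen genes passed the filter in the cultures without bFGF alone, through the group where they are high, and are not counted here. Among the genes with the largest differences on the lower side were Zfp324, S1pr3, Bmf and Emilin1. Their lowest counts in a library with bFGF were 12, 14, 6 and 16 reads, so the size of these differences is uncertain. S1pr3, a receptor for sphingosine 1-phosphate, went from 0.80 and 5.66 FPKM to 0.17 and 0.18 FPKM on day 7 with bFGF, and from 35.1 and 46.5 FPKM to 94.6 and 153 FPKM without it (difference -3.90, adjusted p = 0.000784). Hspb1, a small heat shock protein, had the opposite course, from 531 and 227 FPKM to 1828 and 2357 FPKM with bFGF and from 343 and 206 FPKM to 135 and 99.6 FPKM without it.

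Abundance and gene structure moved with the calls. To keep the level independent of the comparison, genes were ranked by their mean FPKM in BM and C on day 3. In 5 groups of equal size, from the least to the most abundant (median 3.10, 7.88, 14.3, 26.3 and 68.1 FPKM), 10.96%, 9.41%, 11.3%, 16.6% and 34.9% were called higher. The shares called lower were 21.5%, 28.3%, 22.9%, 16.0% and 9.35%. Across the 10853 genes, which are not independent, Spearman's rho between that level and the log2 fold change was 0.23. The median transcript length was 2428 bases for genes called higher, 3619 bases for genes called lower and 3116 bases for all. Of 253 Zfp genes, zinc finger genes chosen after their values were seen, 127 were lower and 11 were higher. How far these properties contribute to the calls on ribosomal, oxidative phosphorylation and receptor genes was not tested.

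**Figure D5:**
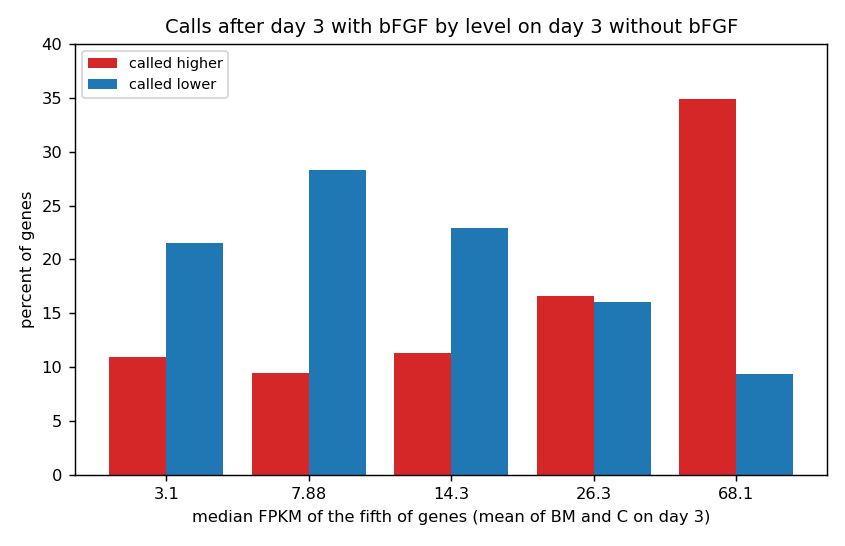
Percent of genes called higher (red) and lower (blue) after day 3 with bFGF in 5 equal groups ranked by mean FPKM in BM and C on day 3, libraries that the calls did not use. The share called higher is 34.9% in the most abundant group, and the share called lower is highest at 28.3% in the group with a median of 7.88 FPKM.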

How the data were processed

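RNA-seq of mNRPCs on the BGISEQ-500 platform was analysed in 6 of 17 libraries (B and BC on days 3, 5 and 7), with BM and C on those days for comparison. Treatment and day come from the labels. The authors deposited per gene an expected count, an estimated read number that need not be whole, and an FPKM value scaled by transcript length and library total. The submitters' processing notes name Bowtie2, RSEM and mm10, and the paper names eXpress for the same step, so which program made the values is uncertain. The strand setting is not given in the sources used here. Where a library's file lacked a gene, its value was taken as 0.

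Genes whose FPKM averaged 1 or more were kept. Their expected counts, rounded to whole numbers and scaled by TMM, went into the quasi-likelihood test of edgeR 4.0.16 (R 4.3.3), with Benjamini-Hochberg adjustment and a threshold of 0.05. The signs of the pairs used TMM-scaled counts, and the pair differences that ranked the named genes used log2(TMM-scaled FPKM + 1). The residual degrees of freedom were 3, 2, 2, 3 and 6 for the comparisons in the order reported (after day 3, day 5 to 7, BC against B, without bFGF, with against without bFGF). The fits were also run on simulated counts with independent libraries, less spread than the fit after day 3 and no shift in composition. That run does not measure the error rate in these data. Genes named are the 12 rises and 12 falls with the largest smallest pair difference, leaving out predicted genes, up to 4 called members of each list by the same measure, any member of the EGF, FGF, ERK feedback, CDK inhibitor and G1 cyclin lists, and 5 genes per direction for the interaction with bFGF. A few genes outside this rule (Xbp1, Sox2, Cd68, Cx3cr1, Ifi27, Irf1, Fzd5, the marker genes of the cell type check, the markers below the filter and the members with a promoter match) are named to complete a count or a check and were chosen after their values were seen. Members and lists were chosen with earlier results of these data known. Gene coordinates and promoters are RefSeq on GRCm38.p6, the assembly that mm10 names, and transcript lengths are those of GENCODE M21. Alternatives were no TMM, DESeq2 1.42.0, limma 3.58.1 on log2(FPKM + 1), other filters, other day terms, no CHIR99021 term, and leaving out each library. Python 3.11.15, pandas 2.3.3 and matplotlib 3.10.9 handled tables and plots. A few genes that the rule names are not reported here. The list genes Mx1, Mx2, Cxcl14, Olig1, Olig2, Calb2 and Cldn5 were not analysed here.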

Additional observations from a re-analysis of the deposited data

Results flagged for a closer look

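Of 63 groups of 4 later libraries with bFGF that were examined for 1 library far from the others, 1 was found, and chance gives about 1 in 20. It was Lipt2, where the gap of the lowest library, B on day 7 at 0.14 FPKM, to the next was 0.967 of the whole range, at a level of few reads.

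The change after day 3 was tested for a difference with and without bFGF, in the 12 leading rises and 12 leading falls and in the genes chosen for the largest difference. That choice fixes how many of them pass, so their number is no result beside the 39.0% of all genes that passed. The values are the change with bFGF minus the change without it on the log2 scale. They were above 0 for Ndufa4l2 (5.73), Hspa1a (4.58), Hspa1b (4.12), Car9 (4.11), Hspb1 (3.52), Gadd45b (2.87), Gadd45g (2.44), Ciart (2.35), Hspa5 (1.96), Cryab (1.90) and Manf (1.42). Ndufa4l2 was not listed in BM on days 5 and 7 or in C on day 7, so its value depends on the fit's prior count and is no bound. Values below 0 included those of Zfp324 (-4.05), S1pr3 (-3.90), Lipt2 (-3.83), Bmf (-3.71), Emilin1 (-3.68), Zfp46 (-3.001), Fam43a (-2.91), Klhdc8a (-2.90), Tlr4 (-2.72), Zadh2 (-2.71), Ehd2 (-2.66), Irgm2 (-2.64), Tmem140 (-2.48), Fiz1 (-2.10), Tgtp2 (-1.999) and Dkk2 (-1.50). Zfp324, S1pr3, Lipt2, Bmf and Emilin1 had few reads in some libraries with bFGF, so the size of their values is uncertain. The 4 genes whose difference did not pass the threshold were Gcg, Prl2c2, Prl2c3 and Apod.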

How the results depend on the processing

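The 3936 genes called after day 3 with bFGF became 2486 with a mean FPKM of at least 5, 5923 with day 5 only against day 3, 6093 with day 7 only and 6301 with day as a factor of 3 levels. The split of higher and lower calls was 665 and 3900 without TMM scaling, 717 and 3843 in limma, and 2373 and 2147 in DESeq2. Leaving out 1 library in turn gave 0 to 4219 calls after day 3 with bFGF, 6 to 3598 from day 5 to day 7, 1 to 4 for the difference between BC and B, 1148 to 4280 without bFGF, and 2233 to 5139 for the difference with and without bFGF. DESeq2 called 1 gene for the difference between BC and B. The cause of these differences was not tested. The other settings run on all genes kept the counts within 1.5 times. Of 160 genes examined singly, the call was lost for 139 without B day 3, for 156 without BC day 3, for 24 without TMM scaling, for 23 in limma and for 1 in DESeq2. Of 39 lists, 10 changed the sign of their median without TMM scaling. Without either day 3 library the difference between BC and B could not be fitted. No paired analysis was possible because the labels give no replicate numbers, each treatment and day having 1 library. Libraries of a treatment are matched across days by the CHIR99021 term and by the same-sign rule, which are part of the reported fit. Since day 3 has 1 library per treatment, a difference between days and a difference between single cultures cannot be told apart.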

Other observations

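Genes of the extracellular space that no comparison above describes were read against the background of 36.3% called after day 3 with bFGF. Of 16 matrix proteases and inhibitors tested, 6 were higher and 2 lower, the median of 0.26 turning to -0.06 without TMM scaling. Timp1, an inhibitor of matrix metalloproteinases, rose from 66.1 FPKM in B and 53.6 FPKM in BC to 139 and 98.7 FPKM on day 5 and to 199 and 163 FPKM on day 7 (log2 1.64 ± 0.27, edgeR adjusted p = 0.00517). Timp1 rose without bFGF as well (log2 1.13), and the difference between both changes did not pass the threshold (edgeR adjusted p = 0.230). Adamts5, an aggrecanase, fell from 9.09 and 12.4 FPKM to 3.47 and 3.05 FPKM and then to 0.72 and 0.58 FPKM. Of 12 chemokines and cytokines, 3 were higher and 1 was lower, a share not above the background. Spp1 (osteopontin), a secreted phosphoprotein, rose from 1177 and 1300 FPKM to between 2869 and 3886 FPKM, and Il33, a nuclear cytokine of glia and stroma, from 88.6 and 53.6 FPKM to 156 and 100.5 FPKM and then to 367 and 240.5 FPKM. Of 7 glial markers tested, Apoe, Clu and Vim were called higher, Pdgfra was called lower and Cd44, Dkk3 and Glul were not called, and without TMM scaling 1 was higher and 2 lower. The other 8 glial markers, Gfap among them, were below 1 FPKM in all 6 libraries. Apoe, the lipid carrier of Müller glia and astrocytes, rose from 17.7 and 21.5 FPKM to between 36.6 and 65.8 FPKM (log2 1.63 ± 0.25, adjusted p = 0.00439), and it rose without bFGF as well (log2 1.22), the difference between both changes not passing the threshold (adjusted p = 0.331).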
